A study of Mus musculus with 12 samples.

Results

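The array of wild-type (WT) fibroblasts after 8 days of doxycycline (DOX) was set against the 2 other WT DOX arrays, of days 4 and 11, and a gene was a member if its log2 signal at day 8 lay above both or below both. At any size this held for 10141 of 13044 genes, 5099 above (39.1%) and 5042 below (38.7%). The description is therefore of the genes at least 2-fold beyond the nearer of both arrays: 1028 above (7.88%) and 713 below (5.47%). The 5 highest were Mall, Krt16, Alox12b, Cwh43 and Krt14, of which Krt16, Alox12b and Krt14 are genes of stratified epidermis. These values chose the genes, and each group has 1 array, so they are given without a test.

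The series followed mouse embryonic fibroblasts (MEF) on their way to induced pluripotent stem cells (iPSC) and asked how Mbd3, a chromatin regulator, bears on that route. RNA of 12 cultures was measured on 12 arrays, 6 from WT, 4 from flox/- and 2 from -/- cells, with 1 array for each genotype and stage. The WT cells carried both copies of Mbd3 (Mbd3+/+), and their MEF and DOX groups held a transgene set through which DOX switches on the factors Oct4, Sox2, Klf4 and Myc (OSKM). The flox/- cells carried a floxed and a deleted copy of Mbd3 and the same inducible factors. The groups used here are WT MEF without DOX, WT under DOX at days 4, 8 and 11, WT iPSC, WT embryonic stem cells (ESC), flox/- MEF, flox/- under DOX at days 4 and 8, flox/- iPSC, -/- MEF and -/- ESC. All were grown in N2B27 medium with serum replacement, LIF and inhibitors (2i) on irradiated DR4 feeder fibroblasts, so feeder RNA may be in every sample. The labels state neither age nor whether the cells of different days came from the same embryos.

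The label fields of the WT day 8 array differ among themselves: its title and stage field give 8 days and its source name gives 4. It was taken as day 8. Its label and that of WT ESC say that these 2 arrays were published before in an earlier series, so for the WT day 8 array the series and the day cannot be told apart. The Y-linked gene Kdm5d read 4.99 in WT MEF, 5.01 at day 4, 7.56 at day 8, 6.06 at day 11 and 4.71 in WT iPSC, and Eif2s3y, also Y-linked, read 5.73, 6.24, 9.13, 8.34 and 5.02 in the same order. Xist, the RNA of the inactive X chromosome, read 7.51, 10.81, 11.62, 8.52 and 9.79. The part of differences between cultures in the results was not tested.

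Epidermis is a stratified epithelium. Its basal cells, which divide, carry the keratin pair Krt5 and Krt14 and the transcription factor p63 (gene Trp63), while cells that leave the basal layer switch to Krt1 and Krt10, and in the outermost layers they crosslink proteins into a cornified envelope and pack lipids into a water barrier. In wounds, keratinocytes replace part of this set by Krt6, Krt16 and Krt17. Fibroblasts that reprogram pass through a change from a mesenchymal to an epithelial state, and this change concerns the general epithelial genes, such as Cdh1 and Epcam, more than the genes of skin.

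The promoters of 3 of these genes are printed to set the start regions of higher epidermal genes beside that of a dim one. They are the 250 bases before the RefSeq gene start (GRCm38.p6), and capitals mark the motifs that were searched on both strands. The AP-1 motif was searched as TGANTCA, where N is any base. The TATA box was searched as TATAAA. The third motif was CACCC, which binds factors of the Klf family. Alox12b at chr11:69156822-69157071 (plus strand) and Krtdap at chr7:30787655-30787904 (plus strand) were among the 12 highest genes, and Krt5 at chr15:101712906-101713155 (minus strand), the partner of Krt14, was not among the higher genes.
Alox12b: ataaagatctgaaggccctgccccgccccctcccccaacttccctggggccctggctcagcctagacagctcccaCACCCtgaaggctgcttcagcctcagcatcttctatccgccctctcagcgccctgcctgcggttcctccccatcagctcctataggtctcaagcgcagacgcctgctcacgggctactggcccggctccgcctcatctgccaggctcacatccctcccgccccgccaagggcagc
Krtdap: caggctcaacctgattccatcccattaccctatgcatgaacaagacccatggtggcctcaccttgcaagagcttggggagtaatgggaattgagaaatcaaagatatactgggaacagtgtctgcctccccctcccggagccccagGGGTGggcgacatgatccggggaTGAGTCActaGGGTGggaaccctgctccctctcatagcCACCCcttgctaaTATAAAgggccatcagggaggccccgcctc
Krt5: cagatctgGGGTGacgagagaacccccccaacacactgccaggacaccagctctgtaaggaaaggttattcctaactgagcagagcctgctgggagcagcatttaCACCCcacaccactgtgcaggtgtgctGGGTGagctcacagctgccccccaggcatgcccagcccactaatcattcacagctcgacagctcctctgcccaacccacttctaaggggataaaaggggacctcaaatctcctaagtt
Krtdap held an AP-1 match 81 bases before its start, a TATAAA at 30 bases and CACCC at 104, 71 and 43 bases. Alox12b held a single CACCC at 175 bases, and Krt5 held CACCC at 242, 145 and 118 bases. No matches of different motifs overlapped. Of the higher members 788 had a promoter in the RefSeq table, and 10.7% of these held TGANTCA against 5.55% of the 10357 promoters of all genes kept and 7.82% of all 27025 promoters of the table. TATAAA was in 11.5% of the promoters of higher members, against 8.21% of genes kept and 14.3% of all. CACCC was in 75.5%, against 62.2% and 54.5%. Among the 533 promoters of lower members the shares were 6.38% for TGANTCA, 12.6% for TATAAA and 61.2% for CACCC. Of all 1028 higher members, 176 passed the filter on dim genes through the WT day 8 array alone. Motif shares of higher members thus cannot be read against those of genes kept, and no test was made. A match of letters is not a site that was shown to be bound.

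All signals below are log2 values after quantile normalization, where 1 unit is 2-fold. The median probe set read 6.31 and the lower quartile was 4.68, so a gene near or under those levels is dim and its fold is limited by the background. Just inside the 2-fold limit lay Men1 (9.21 at day 4, 10.38 at day 8 and 9.37 at day 11) and just outside lay Grin2d (5.71, 6.71 and 5.48). On the lower side Nusap1 (10.25, 9.25 and 10.77) was just inside and Rp2 (8.68, 7.68 and 9.10) just outside. At 4-fold, 385 genes (2.95%) were above and 155 (1.19%) below. The 2 sides of the plot of all genes thus differ in reach: the highest gene stood 148-fold and the lowest 32.3-fold beyond the nearer array.

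**Figure D1:**
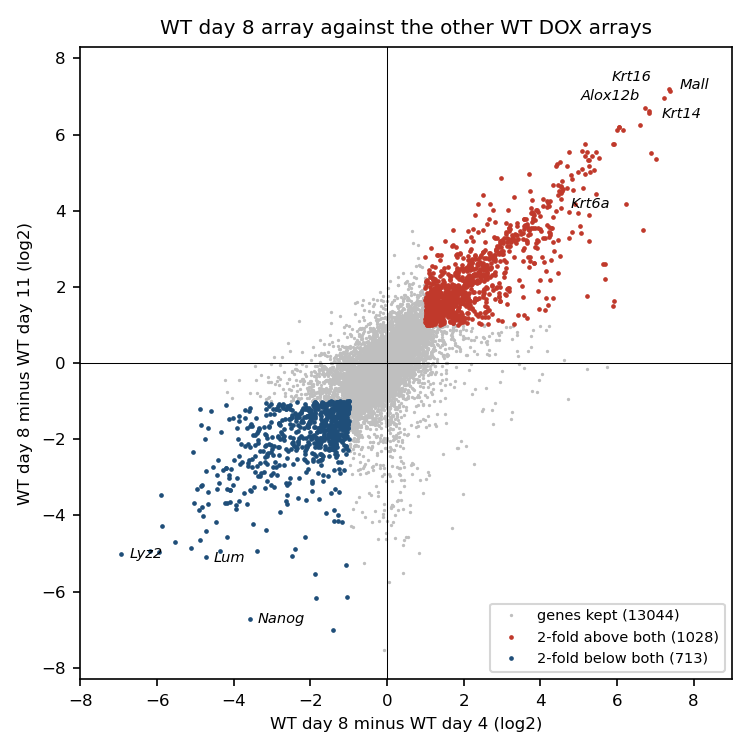
Each point is 1 of 13044 genes, placed by its log2 signal at WT day 8 minus that at WT day 4 (x axis) and minus that at WT day 11 (y axis). The 1028 genes at least 2-fold above both are red, the 713 at least 2-fold below both are blue, and the given marker genes, apart from Krt6a, lie at the upper right end.

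The markers given for this array were dim on every other WT array. Mall, which encodes a membrane protein of the MAL family found in epithelia, read 5.08 in WT MEF, 5.41 at day 4, 12.77 at day 8, 5.57 at day 11 and 5.20 in WT iPSC. Krt16, a keratin of wounded and hyperproliferative epidermis, read 4.83, 4.56, 11.94, 4.80 and 4.74 on the same arrays. Alox12b, a lipoxygenase of the epidermal barrier, read 4.75, 4.85, 12.07, 5.12 and 5.02. For these 3 genes the day 8 signal was far over the array median and stood 148-fold, 141-fold and 124-fold above the nearer DOX array, while the other 4 WT arrays lay under the array median. Krt14 read 5.24, 5.34, 12.18, 5.57 and 5.43, a 97.5-fold distance. Krt6a read 4.27, 4.48, 9.06, 4.49 and 4.34, a 23.7-fold distance. Krt6a and Krt6b are close copies, and whether probes of one read the RNA of the other was not tested.

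The other genes among the 12 highest were Cwh43 (11.26 at day 8), Nccrp1 (12.43), the fatty acid hydroxylase gene Cyp4f39 (11.95), the keratin gene Krt90 (11.48), the serine protease genes Klk10 (12.21) and Klk14 (11.58), the secreted keratinocyte factor gene Slurp1 (11.73) and the keratinocyte differentiation gene Krtdap (10.53). The 12 lay 54.1-fold to 148-fold above the nearer of the other WT DOX arrays. All 12 were highest at WT day 8 among all 12 arrays of the series, as were 887 of the 1028 higher members and 2133 (16.4%) of all genes kept. The same day 8 values chose the members, so these counts cannot be compared and read only as a description. Of the higher members 176 passed the filter on dim genes through the WT day 8 array alone, and 260 lay below the array median on the 4 other WT arrays.

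**Figure D2:**
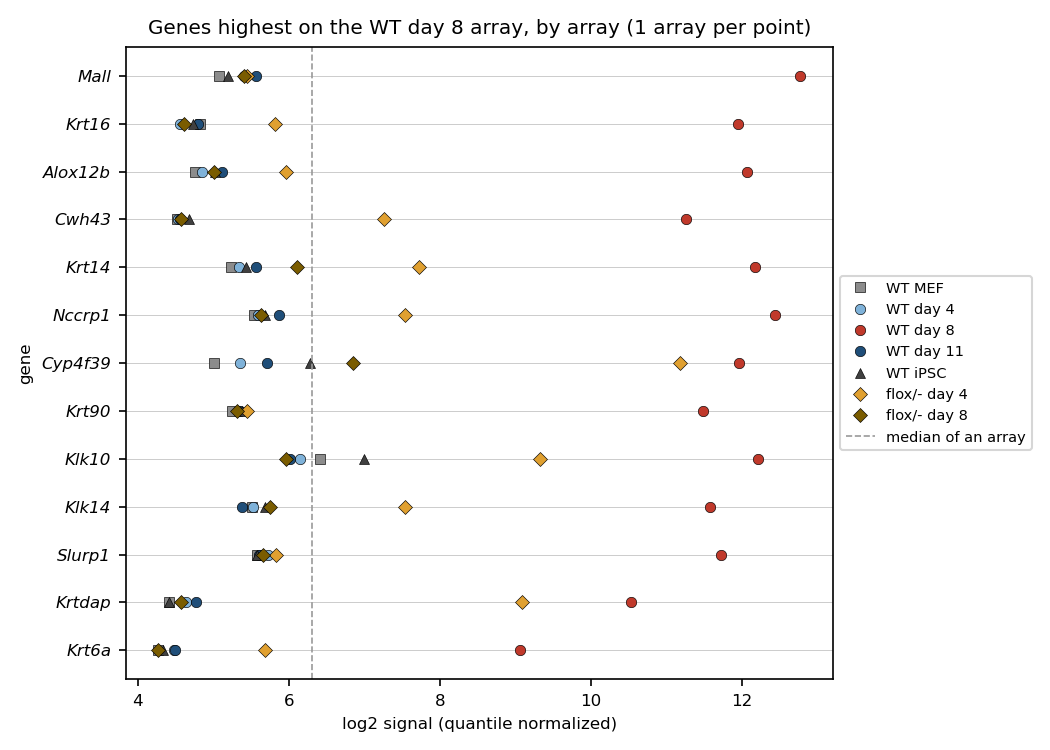
Points are log2 signals of the 12 genes highest on the WT day 8 array and of the marker Krt6a, 1 array per point, and the dashed line is the median of an array (6.31). WT day 8 is the rightmost point in every row, and flox/- day 4 comes next in every row except Mall. Its highest signals are those of Cyp4f39 (11.18), Klk10 (9.33) and Krtdap (9.09).

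The 9 lists of epidermal genes together held 183 measured genes. At day 8, 87 of them were at least 2-fold above both other WT DOX arrays, 2 were below both and 94 were neither, where 1075 of all 19938 genes measured (5.39%) were above and 716 (3.59%) below. These 2 shares of all genes, 5.39% and 3.59%, stand beside every list, family and cluster count of genes above or below both given further on. On the day 8 array 56 of the 183 lay at or below the array median. In bulk RNA fewer cells of a type and less RNA per cell cannot be told apart.

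Among basal genes Krt14 and several adhesion genes were high, while Krt5 and Trp63 were dim. Of 15 measured genes of the basal list 7 were above both and 0 below, and the list's median difference from the mean of days 4 and 11 was 0.33, against 0.03 for all genes. The integrin gene Itgb4, part of the hemidesmosome that ties basal cells to the basement membrane, read 6.88 in WT MEF, 10.18 at day 4, 12.48 at day 8, 9.75 at day 11 and 7.61 in WT iPSC. Lamb3, a chain of the laminin beneath the epidermis, read 5.18, 5.26, 9.32, 5.18 and 5.24. Col17a1, the transmembrane collagen of the hemidesmosome, read 5.80, 5.94, 8.77, 6.04 and 6.05. Day 8 was the highest of the 5 WT arrays for each of these, and Itga3, Itga6 and Lama3 were above both as well.

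Krt5, with which Krt14 pairs in basal cells, read 4.96, 5.04, 5.37, 5.07 and 4.84 from WT MEF through days 4, 8 and 11 to WT iPSC, so Krt14 was bright at day 8 and Krt5 dim. Trp63, the factor that sets up stratified epithelia, read 5.56, 5.73, 5.56, 6.01 and 5.66. Krt15, another basal keratin gene, read 5.52 at day 8. None of the 3 passed the array median on any of these 5 arrays, and Trp63 at day 8 was below its day 4 and day 11 values. Dst, Col7a1 and Dlk2 lay within 2-fold of both.

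All 4 wound keratin genes were above both, with a median difference of 5.21. Krt6b read 4.09 in WT MEF, 4.05 at day 4, 9.28 at day 8, 3.95 at day 11 and 4.03 in WT iPSC. Krt17 read 5.39, 5.52, 10.81, 5.81 and 7.35. The groups are thus split by day 8 alone for Krt6a, Krt6b and Krt16, while Krt17 was above the array median in WT iPSC too.

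Suprabasal genes were divided. Krt1, the first keratin of cells leaving the basal layer, read 4.74, 4.76, 8.23, 4.75 and 4.68 in the same order. Its partner Krt10 read 5.70, 5.89, 6.05, 5.72 and 5.77, and Krt2, a keratin of the upper layers, read 4.61 at day 8. Of 10 measured genes 5 were above both (Krt1, Krtdap, Sbsn, Dmkn and Them5) and 0 below, and the 5 others, Krt10, Krt2, Krt77, Krt78 and Calml3, were dim on all 5 WT arrays. The secreted proteins of Sbsn (9.59 at day 8 against 5.89 and 6.10 at days 4 and 11) and Dmkn (9.83 against 5.58 and 6.42) are made in the same layers as that of Krtdap.

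Of the cornified envelope, the crosslinking enzyme genes Tgm1 and Tgm3 were high, and the substrate genes Ivl and Lor were at or under the array median. Of 33 measured genes 18 were above both and 0 below, with a median difference of 1.66. Tgm1, the membrane transglutaminase that crosslinks the envelope, read 5.66 in WT MEF, 6.66 at day 4, 12.11 at day 8, 7.68 at day 11 and 8.98 in WT iPSC. Tgm3, the transglutaminase of later layers, read 5.09, 6.24, 11.34, 5.76 and 5.50. Cnfn, which encodes cornifelin, read 6.33, 6.44, 11.62, 6.18 and 6.38. Tgm5, a related enzyme gene, stayed at 5.29 at day 8.

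Among the substrates, the small proline-rich gene Sprr1a read 8.55 in WT MEF, 6.45 at day 4, 11.85 at day 8, 6.78 at day 11 and 7.13 in WT iPSC. Sprr1b (8.62 at day 8), Sprr2b (9.69) and Sprr3 (9.30) were also above both, whereas Sprr2d, Sprr2e, Sprr2f and Sprr2h, members of a family with near-identical copies, read 4.35 to 6.01 and were not. Involucrin (Ivl) read 6.11 at day 8 against 4.59 and 4.49, and loricrin (Lor) 6.31 against 4.63 and 4.59. Both passed 2-fold and both were still at or under the array median, and neither was kept by the filter. Flg2 (4.24 at day 8), a filaggrin-like gene of the granular layer, and Hrnr (6.28) were within 2-fold of both. The desmosome linkers of the envelope, Evpl (8.33) and Ppl (9.05), were above both.

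Barrier lipid genes were high in part. Of 21 measured 7 were above both, 0 were below and 14 were neither, with a median difference of 0.59. Aloxe3, which acts after Alox12b on the same lipids, read 5.14 in WT MEF, 5.53 at day 4, 9.79 at day 8, 6.23 at day 11 and 5.40 in WT iPSC. Abca12, the lipid transporter of lamellar granules, read 4.40, 4.42, 9.68, 4.34 and 4.40. Cers3, the synthase of very long-chain ceramides, read 4.71, 4.70, 9.79, 4.69 and 4.76. With Cyp4f39 these belong to the route that makes and exports barrier ceramides, and each was dim on the other WT arrays. Pnpla1, needed for the last acylation step of these ceramides, read 4.89 at day 8, the lipase genes Lipn and Lipk read 3.96 and 3.87, and Sdr9c7 read 4.82. Another lipase gene, Lipm, was above both (6.31 against 4.70 and 4.54) and only at the array median. Ugcg, Smpd1 and Abhd5, enzymes of general lipid handling, were bright on all 5 WT arrays and within 2-fold of both.

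Several proteases that loosen the outer layers were high. Of 27 measured genes of the protease and inhibitor list 14 were above both and 0 below. Klk7, a kallikrein that cuts the links between dead cells, read 5.63 in WT MEF, 5.42 at day 4, 9.84 at day 8, 5.84 at day 11 and 5.60 in WT iPSC. Klk5, its activator in skin, read 4.44, 4.44, 6.47, 4.43 and 4.55 and was near the array median at day 8. Asprv1, the protease that processes filaggrin, read 5.37, 5.31, 10.16, 5.61 and 5.47. The inhibitor gene Spink5, which restrains Klk5 and Klk7, read 5.38 at day 8 and was dim although 2-fold above both, and Casp14, the caspase of cornifying cells, read 5.06. Prss8 and Spint1, which are also expressed in simple epithelia, read 9.71 and 10.70 at day 11 and 8.10 and 11.03 at day 8.

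Counted by family, 13 of 22 measured kallikrein genes (59.1%) and 14 of 52 keratin genes (26.9%) were above both, and 0 of either family were below. Over all genes measured 5.39% were above both and 3.59% below. These families and the next 2 clusters were picked after the values had been seen. Klk1b11 and Klk1b22, among the 13, have close copies that probes may not separate. Between S100a10 and S100a1 on chromosome 3, the epidermal differentiation complex, 20 of 62 measured genes (32.3%) were above both and 0 below. In the Ly6 cluster on chromosome 15, 5 of 22 (22.7%) were above both, Psca, Slurp1, Lypd2, Ly6d and Ly6g, and 1 was below, Ly6e. Within the complex the genes above both included S100 and Sprr genes and Lce1a1, Lce1c and Lce3c of the late envelope family.

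Desmosomes, the junctions that hold keratinocytes together, differed by isoform. Of 14 measured genes 9 were above both and 0 below, with a median difference of 1.80. Dsg3, the desmoglein of basal keratinocytes, read 4.42 in WT MEF, 4.30 at day 4, 9.64 at day 8, 4.20 at day 11 and 4.31 in WT iPSC. Dsg2, the desmoglein of simple epithelia, read 4.67 in WT MEF, 8.56 at day 8 and 9.11 in WT iPSC, and its day 11 value lay within 2-fold of that of day 8. Pkp1, a plakophilin of stratified epithelia, read 6.28, 7.05, 11.36, 6.68 and 6.43. Dsp and Jup, the shared plaque genes, were already bright at day 11 (10.35 and 11.29) and higher at day 8 (12.05 and 12.73).

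General epithelial genes were above both in about as many cases as not. Of 32 measured genes of the adhesion and membrane list 15 were above both, 1 was below and 16 were neither. Cdh1, E-cadherin, read 6.11 in WT MEF, 10.30 at day 4, 12.01 at day 8, 11.37 at day 11 and 11.57 in WT iPSC. Epcam, another general epithelial gene, read 5.23, 6.60, 8.42, 10.64 and 10.14, lower at day 8 than at day 11. Cldn4, a tight junction gene, read 6.64, 6.88, 11.50, 11.42 and 9.95. These 3 were within 2-fold of day 11 or lower, whereas Ocln, another tight junction gene, read 9.41 at day 8 against 6.61 at day 11, and Esrp2, an epithelial splicing factor gene, 9.99 against 8.25. Mal (11.30 at day 8) and Mal2 (12.02), relatives of Mall, were above both, and Gjb2, a connexin gene, was below both, with 5.41 at day 8 against 6.46 and 11.56.

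Of the transcription factors, 8 of 28 measured were above both and 1 below. Ehf, an ETS factor of differentiating epithelia, read 4.27 in WT MEF, 5.47 at day 4, 10.21 at day 8, 4.66 at day 11 and 4.27 in WT iPSC. Ovol1, a repressor that takes keratinocytes out of the cycle, read 5.09, 5.07, 9.07, 5.56 and 5.16. Grhl3, a barrier regulator, read 5.58, 7.58, 10.70, 9.14 and 9.38. Elf5 (8.44 at day 8), Hopx (8.59), Tfap2a (9.25), Hes1 (10.13) and the AP-1 subunit gene Fosl1 (10.03) were above both too. Trp63, Trp73, Gata3 and Dlx3 were within 2-fold of both, and Notch3 was below both, with 6.81 at day 8 against 8.40 and 8.43.

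**Figure D3:**
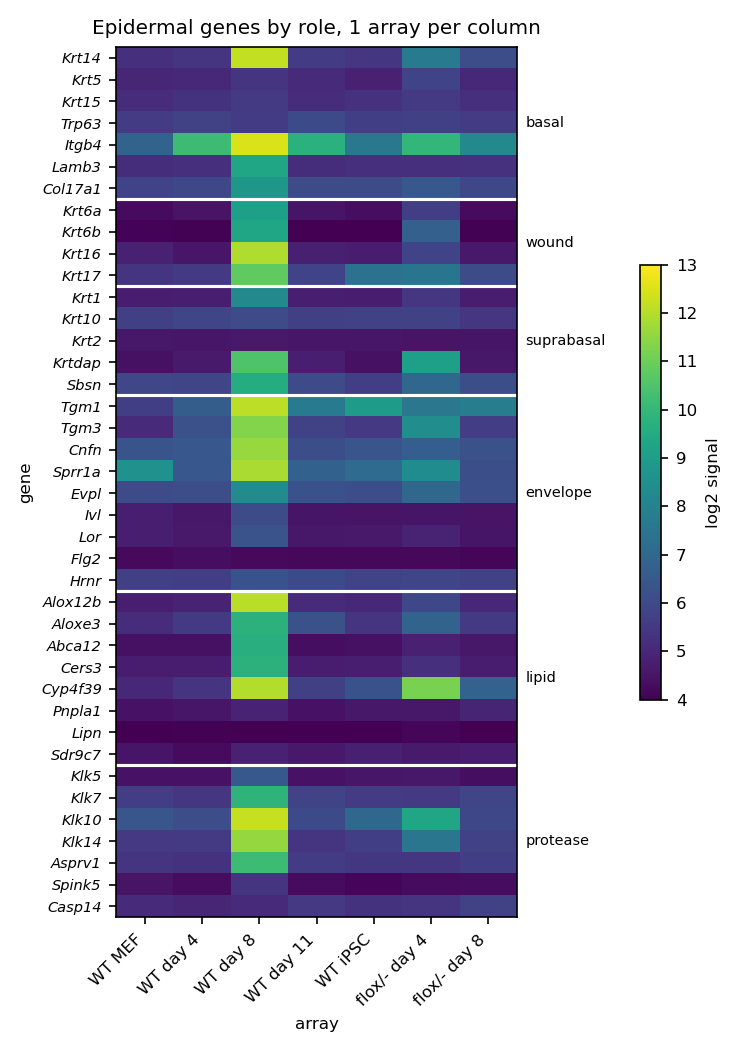
Colour gives the log2 signal of epidermal genes (rows, grouped by role) on 7 arrays (columns). In the WT day 8 column genes such as Krt14 (12.18), Tgm1 (12.11) and Alox12b (12.07) are bright, while Krt5 (5.37), Trp63 (5.56), Krt10 (6.05), Flg2 (4.24) and Casp14 (5.06) remain dim.

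Keratins outside skin and growth factors of the EGF family were part of the set. Krt8, of simple epithelia, read 7.41 in WT MEF, 7.45 at day 4, 13.37 at day 8, 11.73 at day 11 and 8.25 in WT iPSC. Its partner Krt18 read 6.45, 6.30, 10.22, 10.98 and 6.50 and was not above day 11. Krt80 (11.54 at day 8), Krt13 (9.93) and Krt19 (11.07) were above both, and 5 of 13 genes of this list were. Of 12 EGF-family genes 5 were above both, the ligand genes Tgfa (9.29), Hbegf (10.11), Ereg (9.01) and Btc (7.71) and the receptor gene Erbb2 (8.95), while the receptor gene Egfr read 9.82 at day 8 and lay between 10.51 and 9.31. Of 22 hair follicle genes 3 were above both, and of 8 mammary and salivary genes 2 were, Aqp5 and Elf5. Among all genes measured 5.39% were.

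**Figure D4:**
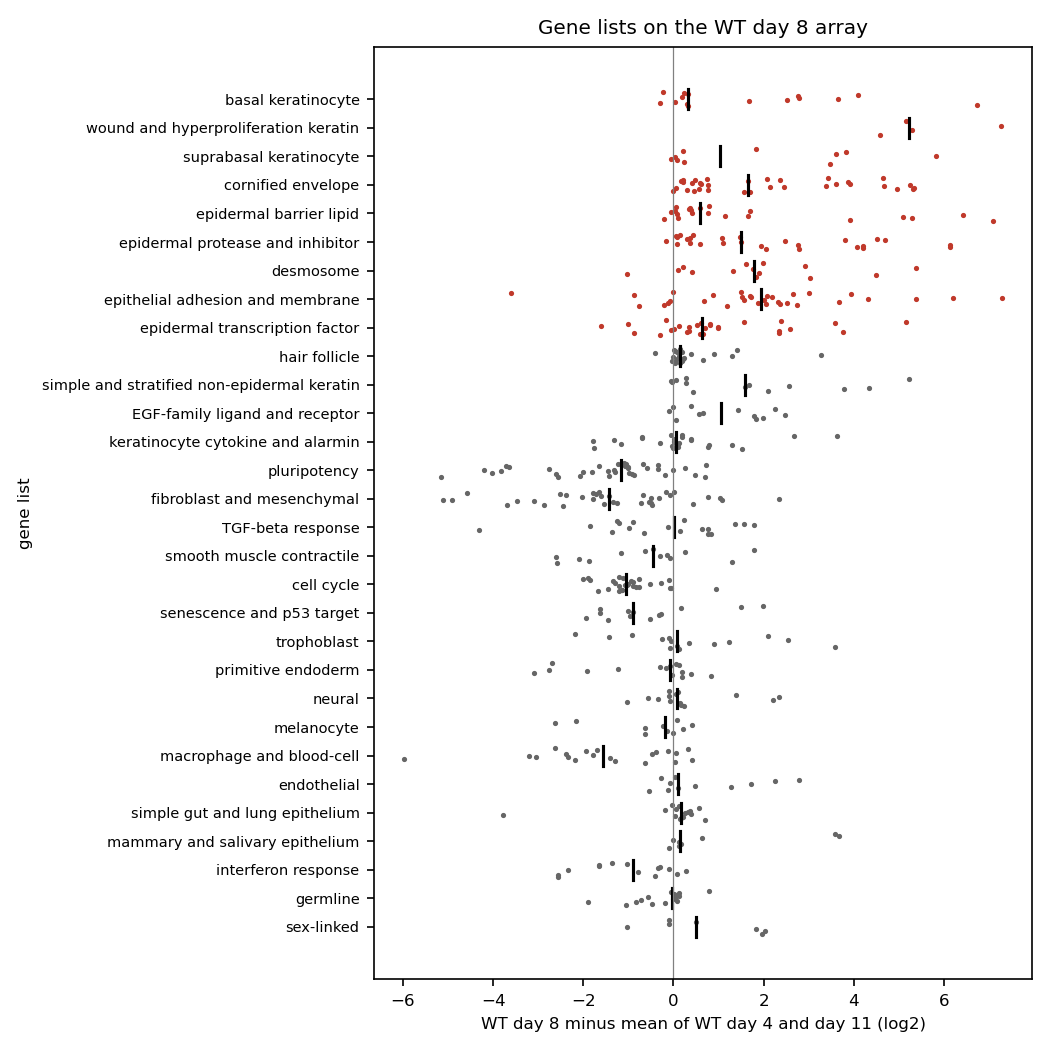
Each point is a measured gene of a list, placed by its signal at WT day 8 minus the mean of WT days 4 and 11 (log2), and black bars are list medians. The 9 epidermal lists, in red, have medians from 0.33 to 5.21, and the pluripotency (-1.16, or 0.25 against day 4 alone), fibroblast (-1.43, or 0.32 against the flox/- DOX arrays), cell cycle (-1.06) and macrophage (-1.56, or -0.45 against day 11 alone) lists have medians below 0.

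At day 8 many pluripotency genes were dim, Sox2 lay near the array median, and Pou5f1, Klf4 and Myc were bright. Of 36 measured genes 0 were above both, 6 were below both (Nanog, Nr0b1, Tdgf1, Gdf3, Tet1 and Fbxo15) and 30 were neither. The list's median difference of -1.16 rests on day 11: against day 4 alone it was 0.25. Nanog, a core factor of pluripotency, read 5.66 in WT MEF, 9.18 at day 4, 5.59 at day 8, 12.31 at day 11 and 12.55 in WT iPSC. Sox2 read 5.48 in WT MEF, 6.41 at day 8, 11.91 at day 11 and 12.42 in WT iPSC. Esrrb read 4.85, 4.54, 5.38, 10.36 and 11.30. For Nanog day 8 was at the MEF level and below day 4, and for Sox2 and Esrrb day 8 was dim or at the array median. Zfp42 (4.70), Dppa5a (4.93) and Tdgf1 (4.49) were dim at day 8, and 16 of the 36 genes were above the array median there, against 18 at day 4 and 36 at day 11.

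Pou5f1, which encodes Oct4, read 6.52, 11.91, 12.63, 11.97 and 12.08, and Klf4 read 8.11, 10.20, 10.34, 9.51 and 10.16. Myc read 9.35, 10.86, 11.99, 10.26 and 7.97 and was 2.19-fold above the nearer array at day 8. Its difference of 1.43 from the mean of days 4 and 11 became -0.18 when WT ESC was subtracted from day 8 and WT iPSC from the others, and that of Klf4 went from 0.49 to -0.24. Pou5f1, Klf4 and Myc were bright on each WT DOX array. At flox/- day 4 Klf4 read 7.20 and Myc 6.88, below flox/- MEF (9.49 and 9.56). Pou5f1 read 9.71 there, above flox/- MEF (4.64). At flox/- day 8 Pou5f1 read 12.12, Klf4 10.46 and Myc 8.21. How much of the signal of these 3 came from the transgenes was not tested. Tfcp2l1 (8.87 at day 8), L1td1 (9.46), Apela (10.40) and Fgf4 (8.84) were also well above the array median.

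The lowest gene was Lyz2, and several of the 12 lowest encode extracellular matrix proteins. Lyz2, lysozyme of macrophages, read 11.96 in WT MEF, 11.69 at day 4, 4.75 at day 8, 9.76 at day 11 and 10.32 in WT iPSC. Lum, a matrix proteoglycan, read 9.62, 9.53, 4.80, 9.90 and 8.91. Postn, a matrix protein of fibroblasts, read 12.56, 11.26, 5.73, 10.43 and 10.71. Day 8 was at background for Lyz2 and Lum while WT iPSC, like MEF, was bright. WT ESC, of the same earlier series as WT day 8, was dim for Lyz2 (5.28) and Lum (4.36) but not for Postn (9.37). The others of the 12 lowest were Dpt, Ogn, E330013P04Rik, Itm2a, Thbs2, Crabp1, Aspn, Tgfbi and Serpina3n, and the 12 lay 18.1-fold to 32.3-fold below the nearer array.

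Of 35 measured fibroblast genes 16 were below both and 1, S100a4, was above, and the median difference was -1.43. Pdgfra, a receptor of mesenchymal cells, read 10.21, 9.19, 5.90, 8.78 and 7.54, and Col1a1 read 12.88, 11.97, 8.75, 10.42 and 9.69. Not all mesenchymal genes were low: Dcn read 12.48 at day 8 against 11.19 and 11.62, Prrx1 read 11.77, Sparc 13.03 and Vim 12.62. At day 8, 30 of the 35 genes were above the array median, against 34 at day 4 and 33 at day 11. Of the 20 macrophage and blood-cell genes 5 were below both, and 3 were above the array median at day 8, against 17 in WT MEF, 14 at day 4, 6 at day 11 and 7 in WT iPSC. Adgre1, a macrophage receptor gene, read 9.33 in WT MEF, 8.18 at day 4, 4.60 at day 8, 5.40 at day 11 and 5.38 in WT iPSC, so it was within 2-fold of day 11. The list's median difference of -1.56 was -0.45 against day 11 alone, -2.43 against day 4 alone and -0.19 against the flox/- DOX arrays. Their part in the low genes of day 8 was not tested.

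For the low genes the flox/- arrays give another picture. Of the 12 lowest genes 4 were lower at WT day 8 than on all other 11 arrays, as were 364 of the 713 lower members and 1517 (11.6%) of all genes kept. Here too the day 8 values chose the members, so the counts cannot be compared. On the flox/- day 8 array Lyz2 read 4.57, Lum 4.59 and Postn 5.84, and on flox/- iPSC 4.67, 4.39 and 5.35. With the flox/- DOX arrays as references 1 of the 12 lowest and 11 of the 12 highest genes were still 2-fold beyond both, and the fibroblast list had a median of 0.32.

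Cell cycle genes were bright throughout but lower at day 8. Of 28 measured, 10 were below both and 0 above, with a median difference of -1.06. The proliferation gene Mki67 read 11.03 in WT MEF, 11.30 at day 4, 10.05 at day 8, 11.22 at day 11 and 10.91 in WT iPSC. Rrm2, needed to make DNA precursors, read 10.14, 11.28, 9.38, 11.48 and 11.95. All 28 genes stayed above the array median on each of these 5 arrays, so the difference was one of level. Ccnd1 read 12.71 at day 8 against 12.05 and 11.48.

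Along the route from fibroblast to pluripotent cells the day 8 array lay midway, but far off it. On a line drawn from WT MEF (0) to WT iPSC (1) over 13044 genes, WT day 4 stood at 0.35, day 8 at 0.52 and day 11 at 0.73. Its root mean square (RMS) distance off that line was 1.09 per gene (log2), against 0.55 for day 4 and 0.53 for day 11. Off-line distance made up 71.2% of the squared distance of day 8 from WT MEF, 58.8% of that of day 4 and 23.2% of that of day 11. At least 2-fold apart were 2658 genes between days 8 and 4, 2910 between days 8 and 11, and 1481 between days 4 and 11. The array with the fewest genes 2-fold from WT day 8 was flox/- day 4, with 2535, and flox/- day 8 had 4147.

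**Figure D5:**
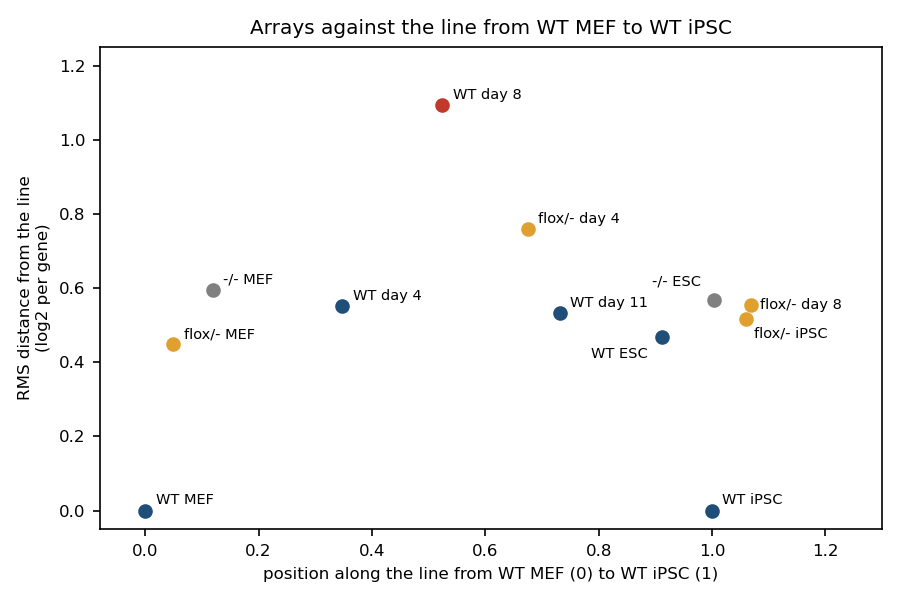
Each point is 1 of 12 arrays, placed by its position along the line from WT MEF to WT iPSC (x axis) and its RMS distance off that line in log2 units per gene (y axis). WT day 8 lies at 0.52 along the line and at 1.09 off it, above all other arrays, and flox/- day 4 is next at 0.76.

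Most higher members exceeded both end states. Of the 1028, 750 (73%) were at least 2-fold above both WT MEF and WT iPSC, where 956 of all genes kept (7.33%) were, and of the 713 lower members 290 (40.7%) were at least 2-fold below both, where 415 (3.18%) were. These counts share the day 8 array with the rule and read only as a description.

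The members were also counted on flox/- arrays, which the rule did not use. Of the 1028 higher members 176 passed the filter through the WT day 8 array alone. Shares of the 1028 are thus given beside those of all genes kept but cannot be read against them. In flox/- cells 211 of the 1028 higher members (20.5%) were 2-fold higher at day 4 than in MEF, where 13.5% of all genes kept were, and 112 (10.9%) at day 8, where 15.8% were. Of the 713 lower members 313 (43.9%) were 2-fold lower at flox/- day 4 than in MEF, where 15.1% of all genes kept were, and 303 (42.5%) at flox/- day 8, where 20.9% were. Some members went in the opposite direction. At flox/- day 4, 185 lower members (25.9%) were 2-fold higher than in MEF, against 13.5% of all genes kept. At flox/- day 8, 197 lower members (27.6%) were, against 15.8%. Of the higher members 264 (25.7%) were 2-fold lower at flox/- day 8, against 20.9% of all genes kept. At flox/- day 4, 150 higher members (14.6%) were, against 15.1%. Between the flox/- DOX arrays 286 of the 1028 (27.8%) were 2-fold higher at day 4 than at day 8, where 11.8% of all genes kept were. Among the 87 epidermal genes above both, 37 (42.5%) were 2-fold above flox/- MEF at flox/- day 4, where 9.01% of all genes measured were, and 18 (20.7%) at flox/- day 8, where 10.6% were. Each of these groups is 1 array, and no test was made.

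By gene, flox/- day 4 was close to WT day 8 for Cyp4f39 (11.18 against 11.95) and Them5 (9.77 against 9.68). It was intermediate for Krtdap (9.09 against 10.53), Klk10 (9.33), Krt14 (7.73), Krt17 (7.51), Krt6b (6.74), Cwh43 (7.27) and Nccrp1 (7.54). Mall (5.45), Krt90 (5.45), Slurp1 (5.83), Asprv1 (5.41) and Lamb3 (5.21) were dim at flox/- day 4. The markers Krt16 (5.81), Krt6a (5.69) and Alox12b (5.96) were under the array median there but above flox/- MEF (4.79, 4.39 and 4.95). Krt5 (5.80) and Trp63 (5.69) were dim there as well.

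WT ESC came from the same earlier series as WT day 8. Of the higher members 36 (3.5%) were 2-fold higher in WT ESC than in each of the 3 other pluripotent arrays, where 154 of all genes kept (1.18%) were. These shares cannot be compared, since 176 higher members passed the filter through the WT day 8 array alone. Among 13044 genes, only Crct1 was 2-fold higher on both arrays of the earlier series than on all 10 others (10.13 at WT day 8, 7.56 in WT ESC), and only Sike1 was 2-fold lower on both. Mall (5.41), Krt14 (5.27), Krt16 (4.83), Krt6a (4.38) and Alox12b (5.01) were dim in WT ESC. When WT day 8 minus WT ESC was set against days 4 and 11 minus WT iPSC, 938 genes were 2-fold above both and 749 below. Of these, 773 of the 938 (82.4%) and 476 of the 749 (63.6%) were members in the same direction. They made up 75.2% of the higher and 66.8% of the lower members. The same WT day 4, 8 and 11 values chose the members, so overlap is built in and no conclusion is drawn from it.

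The MEF and pluripotent arrays took no part in the rule. Limma compared the 4 pluripotent with the 3 MEF arrays of different genotypes and called 3921 genes higher (30.1%) and 3906 lower (29.9%) in pluripotent cells at an adjusted p under 0.05 over 13044 genes. Higher members are not counted here, since part of them passed the filter through the WT day 8 array alone. Of the 713 lower members 243 were called higher (34.1%), 318 lower (44.6%) and 152 neither. Cyp4f39 was higher in pluripotent arrays than in MEF (limma adjusted p = 0.0042), and leaving out any of the 7 arrays kept the call. It read 6.12 ± 0.37 SD (n = 4) in pluripotent arrays against 5.12 ± 0.105 SD (n = 3) in MEF. Both means lay under the array median (6.31). The other highest genes, Mall, Krt14, Krt16, Alox12b, Cwh43, Nccrp1, Krt90, Klk10, Klk14, Slurp1 and Krtdap, were not called (limma adjusted p 0.126 to 0.791). Lyz2 was lower in pluripotent arrays (7.25 ± 2.72 SD, n = 4, against 11.05 ± 1.24 SD, n = 3, limma adjusted p = 0.0487), and its pluripotent arrays ranged from 4.67 to 10.32. That call was lost without WT MEF (limma adjusted p = 0.134), flox/- MEF (0.129), -/- MEF (0.0535), flox/- iPSC (0.0982) or WT ESC (0.107), and with genotype as a block (0.0712).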

How the data were processed

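RNA was extracted with TRIzol and labelled with a 3' IVT kit, per the labels' protocols, and hybridised to Affymetrix whole-transcript gene arrays. The deposited values are log2 signals of 35512 probe sets on 12 arrays, from 3.11 to 13.99. How the authors summarised and normalized them is not given in the sources used here. Array medians differed by 0.122, above the limit of 0.1, so values were quantile normalized. An array has no sequencing depth, and having 1 array per group limits the precision. Of the probe sets, 21789 had a single gene symbol in GEO's platform annotation, 1621 had several and 12102 were not listed, and the latter 2 kinds were left out. Each gene was represented by its brightest probe set on average (19938 genes, 999 of them with several probe sets). Genes above the array median on at least 1 array were kept (13044).

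A member had to lie at least 2-fold beyond the nearer of the WT day 4 and day 11 arrays. The members, the 30 gene lists (585 entries, 545 measured) and the limit were chosen with earlier results of these data known. One list entry, an alias that matched only an unrelated gene, was removed after the values were seen. The genes named are the given markers, the 12 highest and 12 lowest members, epidermal list genes 2-fold beyond both with the defining ones that were not, and the 4 reprogramming factors. Other list genes quoted, gene families, clusters and the printed promoters were chosen after the values were seen. Array differences carry no test. The limma 3.58.1 test (lmFit and eBayes, two-sided, Benjamini-Hochberg adjusted) in R 4.3.3 used MEF and pluripotent arrays only, with genotypes as replicates, so p-values measure the spread between these samples. On simulated data with 13044 genes it recovered 66% of changes of 1 log2 unit and 96% of changes of 2. Python 3.11.15 was used for the rest. Alternatives were normalization, probe set choice, filter, fold, reference arrays and genotype as a block.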

Additional observations from a re-analysis of the deposited data

Results flagged for a closer look

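Among 105 named genes, 6 (5.71%) had a pluripotent array whose gap to the nearest of the 4, divided by their range, passed Dixon's limit, where chance gives about 1 in 20. WT ESC stood above the 3 others for Crct1 (7.56 against 5.32 to 5.62), Cst6 (4.71 against 4.56 to 4.58), Elovl1 (10.16 against 9.35 to 9.46) and Lor (4.92 against 4.57 to 4.62). For Sfn, flox/- iPSC was below the others (8.51 against 9.70 to 9.90), and for Sprr2b it was above them (5.44 against 4.54 to 4.68). The Cst6, Lor and Sprr2b values all lie under the array median.

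Day 8 minus MEF had opposite signs in WT and flox/- cells for Krt16 (7.11 and -0.18), Krt6a (4.80 and -0.12), Klk10 (5.80 and -0.06) and Slurp1 (6.15 and -0.05). The flox/- differences are small, each value rests on 1 array per group, and the difference between genotypes was not tested. At flox/- day 4 Krt16 read 5.81 against 4.79 in flox/- MEF, Krt6a 5.69 against 4.39 and Klk10 9.33 against 6.02. Slurp1 hardly differed (5.83 against 5.71), with both values under the array median.

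Among 7177 probe sets without a single gene symbol that passed the filter, 215 (3%) were at least 2-fold above both other WT DOX arrays and 303 (4.22%) below both. They are not named here.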

How the results depend on the processing

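The 1028 higher, 713 lower and 87 higher epidermal genes became 1771, 1550 and 100 at 1.5-fold and 385, 155 and 57 at 4-fold. Leaving out 1 reference array gave 1380 to 1482 higher, 1278 to 1428 lower and 91 to 110 epidermal genes. With all 4 other DOX arrays as references, 750 higher and 289 lower genes were left. The deposited values without further normalization, the probe set with the highest median, no filter, and a filter of at least 3 arrays gave 782 to 1075 higher and 703 to 725 lower genes.

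Among lists with a median at least 1 away from 0, that of the pluripotency list changed sign without WT day 11 (0.25 in place of -1.16, and -2.82 without WT day 4), and that of the fibroblast list with the flox/- DOX arrays as references (0.32 in place of -1.43). Of 105 markers, highest, lowest and epidermal genes 0 changed sign. They were chosen as at least 2-fold beyond both WT day 4 and day 11, so leaving out either array could not change a sign. No conclusion is drawn from that count. Of the reprogramming factors, Sox2 changed from -2.55 to 0.40 without WT day 11 (-5.50 without WT day 4), and Myc from 1.43 to -0.18, and Klf4 from 0.49 to -0.24, with WT ESC and WT iPSC subtracted.

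The limma counts stayed within 1.5 times of those reported under each alternative, among them leaving out each of the 7 arrays. With genotype as a block, an alternative chosen after seeing the data, limma called 3782 genes higher and 3750 lower, and Cyp4f39 was still called (adjusted p = 0.0107). The limma call of Lyz2 was lost there (adjusted p = 0.0712) and without a filter (adjusted p = 0.077). Genes under the array median have folds limited by background.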

Other observations

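Beyond epidermal genes, the WT day 8 array was high for a few genes of other lists. Tslp, a cytokine made by keratinocytes, read 5.30 in WT MEF, 3.88 at day 4, 7.57 at day 8, 4.02 at day 11 and 3.92 in WT iPSC. Ptgs2, the inducible prostaglandin synthase, read 11.42, 10.07, 12.65, 9.90 and 8.65. The alarmin genes S100a8 and S100a9 read 4.42 and 5.06 at day 8 and were dim on all 5 WT arrays. Of 26 cytokine and alarmin genes 3 were above both and 2 below, where 5.39% and 3.59% of all genes measured were. Esam, an adhesion gene of endothelial cells, read 7.77 at day 8 against 4.98 at both day 4 and day 11, while the endothelial markers Cdh5 (4.86) and Pecam1 (6.07) were dim. Of the trophoblast list, Elf5 and Tead4 (10.73) were 2 of 15 genes above both, and Cdx2 (4.96) and Eomes (5.55) were dim.

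Of 14 interferon response genes 5 were below both and 0 above. Ifit1 read 6.48, 7.69, 5.08, 7.57 and 6.52 from WT MEF to WT iPSC, and Ifit3 read 6.75, 6.81, 4.36, 7.01 and 5.30. Both were near background in WT ESC too (4.87 and 4.62). The list's median difference of -0.90 was -0.28 against the flox/- DOX arrays and -0.37 with WT ESC and WT iPSC subtracted. Its median signal was 5.06 at flox/- day 8 and 5.02 in WT ESC.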
